A study of Mus musculus with 8 samples.

Results

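Cells pass from growth into DNA replication when D-type cyclins bind the kinases CDK4 and CDK6 and hold Kip inhibitors that would otherwise block the later kinase CDK2. The 10 genes described here encode the core of that switch: the cyclins Ccnd1, Ccnd2 and Ccnd3, the kinases Cdk4 and Cdk6, the Ink4 locus and family genes Cdkn2a, Cdkn2b, Cdkn2c and Cdkn2d, and the Kip inhibitor Cdkn1b. They were taken by name, and every non-control probe whose transcript accession belongs to one of them was used, which gave 17 of the 56605 probes on the array, for 10 of 45616 genes and unnamed transcripts. Active cyclin D kinases phosphorylate the retinoblastoma protein RB and so free the E2F transcription factors, which switch on genes of DNA replication. The Ink4 proteins block CDK4 and CDK6 directly, whereas the Kip protein p27, the product of Cdkn1b, chiefly inhibits CDK2 and can also be carried by cyclin D complexes. Cdkn2a is unusual in that a second reading frame gives Arf, which acts through MDM2 on p53, and the loss of the Cdkn2a and Cdkn2b region is a common event when mouse cells are immortalized in culture.

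The measurements come from TEC71, an immortalized mouse line of medullary thymic epithelial cells, the epithelium of the inner thymus in which maturing T cells meet self antigens. The study asked how a mutation of Gtf2i, the gene of the transcription factor TFII-I, alters expression in this line. The cells had been edited with Cas9n, a nickase form of Cas9 that cuts 1 strand of DNA. The groups were knockin#1, a clone with the Gtf2i change that the labels call T1211A (3 arrays), knockin#3, another clone with the same change (2 arrays), and the control, TEC71 cells given Cas9n with only 1 gRNA (3 arrays). The labels do not say whether the token counts bases or residues, and each edited group is 1 clone, so differences made by the mutation and by the choice of a clone cannot be told apart. All cells grew in RPMI-1640 medium with serum, and nothing in the labels says whether the arrays of a group came from separate cultures, so p-values measure the spread between these arrays, which may be technical.

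A level below is the log2 signal of a probe minus that of its array's 75th percentile, and a difference is in log2 units, so that 1 unit is a doubling. Differences were tested with limma over 25353 genes and unnamed transcripts, and a gene is called where the adjusted p is under 0.05. Per array, 55.3% to 59.3% of probes exceeded background. All 17 probes of the 10 genes were well above background on all 8 arrays and none was saturated, so that no member was lost to the filter on dim probes. The number of arrays limits the precision. The 3 control arrays and 1 knockin#1 array lay in row 1 of the slide and the other 4 in row 2. Row and genotype are thus nearly confounded for knockin#1 and fully for knockin#3. With the row as a block, the knockin#1 difference equals that of row 1 alone. The blocked knockin#3 difference adds to it the difference of the clones within row 2. Both therefore rest on the 1 knockin#1 array in row 1. Its brightest spike-in control signal was 3238, against 18804 to 34228 on the other arrays, and the effect of this was not tested. Of 10 medullary epithelial markers 7, among them Epcam, Krt5, Krt14 and Trp63, were above background on all arrays, while Ccl21a and H2-Aa were on none and Aire was on some. Their summed level relative to the 75th percentile ran from 187.8 to 205.3 in knockin#1 and from 210.3 to 218.3 in knockin#3, against 225.2 to 338.2 in the control. Within that list Epcam, Krt5, Trp63 and Cd80 fell in both clones, Cldn4 rose (1.52 in knockin#1, 1.17 in knockin#3), and Krt14 and Cldn3 were not called. The 4 cortical epithelial markers summed to 2.18 to 2.72 in knockin#1 and 2.39 to 2.45 in knockin#3, against 1.6 to 1.86 in the control. Of them Prss16 rose in both clones (0.71 and 0.57) and Psmb11 was at background on every array. Ly75 was not called (0.20 in knockin#1, -0.21 in knockin#3). Ccl25 rose in knockin#3 (0.48) and was not called in knockin#1 (0.16). Fibroblast markers summed to 0.433 to 0.603 in knockin#1 and 0.452 to 0.515 in knockin#3, against 0.938 to 1.19 in the control, with Pdgfrb, Lum and Dcn at background on every array. Of the 2 fibroblast markers above background throughout, Pdgfra fell (-1.30 in knockin#1, -1.83 in knockin#3) and Col1a2 was not called (-0.13 and 0.14). Foxn1, Krt8, Krt18 and Cdh1, markers of either kind of thymic epithelium, were above background on all arrays and not called. The same held for the haematopoietic markers Cd3e and Cd4 and the endothelial marker Pecam1. Of the 5 haematopoietic markers, however, Cd8a and Adgre1 were above background on no array and Ptprc was on 1. Of the 3 endothelial markers, Cdh5 and Kdr were above background on no array. The part of these marker shifts in the results was not tested.

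The promoters of the members that differed most are shown first. Sequences are the 250 bases before each transcription start in RefSeq for GRCm38.p6, on the strand of the gene, and 8 of the 10 members had such windows, 11 in all. Capitals mark matches, on either strand, to 2 short motifs: the GC box GGGCGG, read by Sp1-type factors, and the E-box CACGTG, read by Myc and its relatives. The Cdkn2d promoter and both promoters of Ccnd3 belong to the members that were higher in both clones, 1 of the 2 Cdkn2c promoters to the member that was lower in knockin#1, and the Cdk4 promoter to a member that was not called.
Cdkn2d chr9:21291210-21291459, minus strand: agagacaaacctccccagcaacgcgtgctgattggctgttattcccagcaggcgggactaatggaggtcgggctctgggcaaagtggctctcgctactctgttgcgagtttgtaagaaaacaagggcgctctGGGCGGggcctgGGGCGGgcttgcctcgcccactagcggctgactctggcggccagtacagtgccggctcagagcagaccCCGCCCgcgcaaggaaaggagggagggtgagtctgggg
Ccnd3 chr17:47504801-47505050, plus strand: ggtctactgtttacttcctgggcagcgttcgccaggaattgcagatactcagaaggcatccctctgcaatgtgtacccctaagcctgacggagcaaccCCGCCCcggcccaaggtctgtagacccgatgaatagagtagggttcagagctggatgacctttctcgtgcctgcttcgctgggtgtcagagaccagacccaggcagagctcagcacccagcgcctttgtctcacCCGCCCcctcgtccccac
Ccnd3 chr17:47593217-47593466, plus strand: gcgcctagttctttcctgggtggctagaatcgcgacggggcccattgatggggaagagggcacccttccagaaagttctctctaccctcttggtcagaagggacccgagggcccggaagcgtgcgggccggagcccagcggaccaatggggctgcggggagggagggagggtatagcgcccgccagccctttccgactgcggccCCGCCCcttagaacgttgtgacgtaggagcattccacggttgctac
Cdkn2c chr4:109666757-109667006, minus strand: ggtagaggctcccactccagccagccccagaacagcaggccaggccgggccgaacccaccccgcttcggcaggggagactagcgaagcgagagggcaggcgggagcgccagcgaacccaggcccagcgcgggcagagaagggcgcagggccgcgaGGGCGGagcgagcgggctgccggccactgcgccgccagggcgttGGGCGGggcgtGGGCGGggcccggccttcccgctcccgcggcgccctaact
Cdk4 chr10:127063285-127063534, plus strand: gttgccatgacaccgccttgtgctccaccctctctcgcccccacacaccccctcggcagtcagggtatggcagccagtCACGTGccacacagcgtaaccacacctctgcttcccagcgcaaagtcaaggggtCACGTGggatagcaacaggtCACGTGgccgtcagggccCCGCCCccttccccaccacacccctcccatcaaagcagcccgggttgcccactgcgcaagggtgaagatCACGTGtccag

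The Cdkn2d window holds 3 GC boxes, whose first bases lie 118, 106 and 38 bases before the start. The Ccnd3 windows hold 2 GC boxes, at 152 and 18 bases, and 1 at 46 bases. The Cdkn2c window shown also holds 3 GC boxes, at 95, 51 and 40 bases, and the window of the other Cdkn2c start (chr4:109665373-109665622, not shown) holds none. Cdkn2c was lower and Cdkn2d higher in knockin#1. GC boxes were found in 7 of the 11 member windows, and in 32.7% of all 32851 windows of this length. The Cdk4 window holds 4 E-boxes, at 172, 118, 98 and 11 bases before the start, and 1 GC box at 80 bases. At least 1 E-box was present in 2 of the 11 member windows, those of Cdk4 and Cdk6, and in 6.02% of all windows, while 4 or more were present in 0.0213% of all windows. Both strands were also searched for the AP-1 motif TGANTCA, which no member window and 6.75% of all windows hold, and for 4 spellings of an E2F site (TTTCGCGC, TTTGGCGC, TTTCCCGC and TTTGCCGC). An E2F spelling stands 99 bases before one start of Cdkn2a and in 1.86% of all windows. These matches describe letters and say nothing of binding.

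Across the 10 genes, Cdkn2d and Ccnd3 rose in both clones and Cdkn2c fell in knockin#1, while neither kinase was called. In knockin#1, 3 of the 10 members (30%) were called, 2 higher and 1 lower, against 31.1% of all genes and transcripts tested (14.7% higher and 16.5% lower). In knockin#3, 2 of the 10 (20%) were called, both higher, against 30.2% of all tested (13.3% higher and 17% lower). Both shares lie near or below their background, so the group as a whole was not set apart from the array by its number of calls. The same 2 genes were called in both clones, against a background of 23.5% (11.3% higher and 12.2% lower). The clones share their control arrays, so their differences are not independent of each other. The median difference of the 10 members was 0.07 in knockin#1 and -0.04 in knockin#3, beside -0.05 and -0.04 over all tested. Over the 14719 tested genes with a symbol, as all members have, the medians were 0.0009 and 0.0233. Of those genes 2860 were called higher and 2462 lower in knockin#1, and 2617 and 2206 in knockin#3. In both clones 2263 of them were higher and 1781 lower. On 4 of the 10 genes, Ccnd3, Cdkn1b, Cdkn2c and Cdkn2d, the 5 knock-in arrays did not overlap with the 3 control arrays, which was the case for 38.4% of all tested (17.4% above and 20.9% below).

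**Figure D1:**
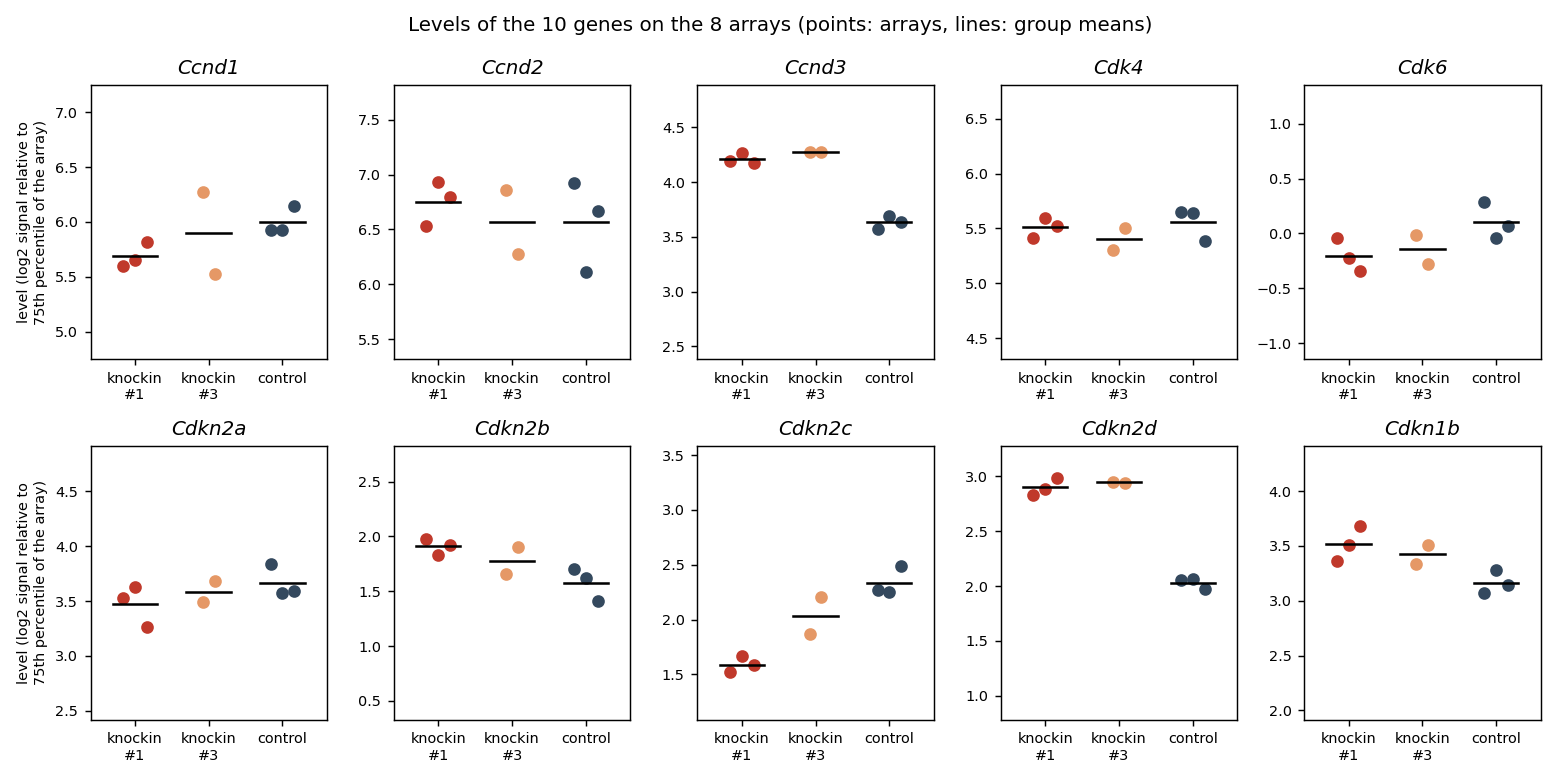
Levels of the 10 genes on each array, as log2 signal minus the array's 75th percentile, with knockin#1, knockin#3 and the control from left to right in each panel. Points are arrays and lines are group means, and every panel spans the same number of log2 units. The knock-in points lie clear above the control for Ccnd3 and Cdkn2d. For Cdkn2c the knockin#1 points lie clear below the control, while 1 knockin#3 point, at 2.21, lies just under the lowest control point, at 2.25.

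Cyclin D1, the product of Ccnd1, is the D-type cyclin most directly induced by growth factors. Ccnd1 had levels of 5.60, 5.65 and 5.82 on the knockin#1 arrays and 6.27 and 5.53 on the knockin#3 arrays, against 5.93, 5.92 and 6.15 on the control arrays. The knockin#1 arrays all lay below the control arrays, while 1 knockin#3 array lay above all of them and the other below. The difference was -0.31 for knockin#1 (SE 0.19, adjusted p = 0.256) and -0.10 for knockin#3 (SE 0.21, adjusted p = 0.757), and neither was called. The 95% interval ran from -0.73 to 0.12 for knockin#1 and from -0.58 to 0.37 for knockin#3. A single array sets the sign in knockin#3: the difference was 0.27 (adjusted p = 0.309) with only the first array of that clone and -0.47 (adjusted p = 0.0793) with only the second. The gap of 0.74 between these 2 arrays was exceeded by 5.47% of 32310 probes, whose median gap was 0.19.

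Cyclin D2, from Ccnd2, was read by 3 probes. The brightest, A_55_P2917114, had levels of 6.53, 6.93 and 6.79 on the knockin#1 arrays and 6.86 and 6.28 on the knockin#3 arrays, against 6.93, 6.11 and 6.67 on the control arrays. The groups overlapped, and the control arrays alone spanned most of the range. The difference was 0.18 for knockin#1 (SE 0.24, adjusted p = 0.615) and 0.00 for knockin#3 (SE 0.26, adjusted p = 1.00), with 95% intervals of -0.36 to 0.72 and -0.60 to 0.60. The probe A_65_P18532, on a predicted transcript, differed by -0.03 in knockin#1 and -0.01 in knockin#3. The probe A_52_P53906 differed by 0.16 and 0.26. None of the 3 probes was called in the fit of 32313 probes, in which 32.6% were called in knockin#1 and 31.2% in knockin#3.

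Ccnd3, which encodes cyclin D3, a cyclin known for its role in the expansion of early T cells, rose in both clones. Its brighter probe, A_55_P2041075, had levels of 4.19, 4.26 and 4.18 on the knockin#1 arrays and 4.27 and 4.28 on the knockin#3 arrays, against 3.57, 3.69 and 3.64 on the control arrays. All 5 knock-in arrays lay above all 3 control arrays, and the gap was wider than the spread within any group. The level was 1.49-fold higher in knockin#1 (difference 0.58, SE 0.09, adjusted p = 0.0022) and 1.56-fold higher in knockin#3 (difference 0.64, SE 0.11, adjusted p = 0.00266). The 95% intervals were 0.36 to 0.79 for knockin#1 and 0.40 to 0.88 for knockin#3. In bulk RNA, fewer or more cells of a kind and less or more RNA per cell cannot be told apart. With the array row as a block the differences stayed at 0.56 and 0.61, but the call was lost in knockin#3 (adjusted p = 0.0971) and held in knockin#1 (adjusted p = 0.0347). Row 1 alone, where 1 knockin#1 array faces the 3 controls, gives this same knockin#1 difference, 0.56, and there it was not called.

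The second Ccnd3 probe, A_55_P2918958, lies on the same transcript accession. Its levels were 4.26, 4.25 and 4.29 on the knockin#1 arrays and 4.29 and 3.40 on the knockin#3 arrays, against 3.58, 3.58 and 3.68 on the control arrays. In knockin#1 it moved as the first probe did (difference 0.65, SE 0.20, adjusted p = 0.0350 over all probes). In knockin#3 the first array matched knockin#1 and the second lay below the controls, and the mean difference of 0.23 (SE 0.22, adjusted p = 0.487) was not called. The gap of 0.89 between the 2 knockin#3 arrays was exceeded by 3.29% of probes, whereas the brighter Ccnd3 probe differed by 0.01 between the same arrays. With the probes tested separately, Ccnd3 was thus called in knockin#3 on only 1 of its 2 probes. With the mean of both probes standing for the gene, it was called by limma in each clone. The differences were then 0.61 in knockin#1 (adjusted p = 0.00648) and 0.43 in knockin#3 (adjusted p = 0.0475).

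Cdk4 and Cdk6 encode the catalytic subunits that the D-type cyclins activate. The brightest Cdk4 probe had levels of 5.42, 5.59 and 5.52 on the knockin#1 arrays and 5.30 and 5.50 on the knockin#3 arrays, against 5.65, 5.64 and 5.38 on the control arrays. These ranges overlapped. The difference was -0.05 in knockin#1 (SE 0.12, 95% interval -0.32 to 0.23, adjusted p = 0.808) and -0.16 in knockin#3 (SE 0.13, 95% interval -0.46 to 0.15, adjusted p = 0.434). The other Cdk4 probes differed by -0.02 and 0.18 in knockin#1 and by 0.01 and 0.08 in knockin#3, and were not called.

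Cdk6 had levels of -0.05, -0.22 and -0.34 on the knockin#1 arrays and -0.02 and -0.28 on the knockin#3 arrays, against 0.29, -0.04 and 0.06 on the control arrays. The knockin#1 arrays lay just below the lowest control array, and 1 knockin#3 array lay within the control range. The difference was -0.31 for knockin#1 (SE 0.14, 95% interval -0.62 to 0.01, adjusted p = 0.128) and -0.25 for knockin#3 (SE 0.15, 95% interval -0.60 to 0.10, adjusted p = 0.260). With normexp background correction Cdk6 was called in knockin#1 (difference -0.34, adjusted p = 0.0349). In the limma fit of processed signals 0 of the 2 kinases were called in either clone, and 0 of the 2 had an unadjusted p under 0.05.

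By their brightest probes, 1 of the 4 Ink4 genes was higher in both clones, 1 was lower in knockin#1 and 2 were not called. Of all tested, 31.1% were called in knockin#1, 30.2% in knockin#3 and 23.5% in both with the same sign. Cdkn2b, 1 of the 2 not called, was called in both clones on its other probe, as given below. Cdkn2d, which encodes the inhibitor p19Ink4d, gave the largest difference of the 10 members in each clone. Its levels were 2.83, 2.88 and 2.99 on the knockin#1 arrays and 2.95 and 2.94 on the knockin#3 arrays, against 2.05, 2.06 and 1.98 on the control arrays. Every knock-in array stood well above every control array, with no value between 2.06 and 2.83. The level was 1.83-fold higher in knockin#1 (difference 0.87, SE 0.10, adjusted p = 0.000268) and 1.89-fold higher in knockin#3 (difference 0.92, SE 0.11, adjusted p = 0.000456). The 95% intervals were 0.65 to 1.09 and 0.67 to 1.16. With the array row as a block the differences were 0.80 (adjusted p = 0.00879) and 0.81 (adjusted p = 0.0408). Row 1 alone gives the same knockin#1 difference, 0.80, by construction. Both blocked differences rest on the 1 knockin#1 array in that row, so the knockin#3 value is not a separate check.

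Cdkn2c, which encodes p18Ink4c, ran the other way. Its levels were 1.52, 1.67 and 1.58 on the knockin#1 arrays and 1.87 and 2.21 on the knockin#3 arrays, against 2.27, 2.25 and 2.49 on the control arrays. All 5 knock-in arrays lay below the control arrays, with the knockin#1 arrays lowest and the knockin#3 arrays between them and the control, 1 of them by less than the spread within a group. Expression in knockin#1 was lower by 1.68-fold (difference -0.75, SE 0.13, 95% interval -1.04 to -0.45, adjusted p = 0.0027). The difference for knockin#3 was -0.30 and was not called (SE 0.14, 95% interval -0.63 to 0.03, adjusted p = 0.151). The clones themselves differed by 0.45, knockin#3 minus knockin#1 (SE 0.14, 95% interval 0.12 to 0.77), which did not pass over all genes (adjusted p = 0.345). The knockin#1 call held with the array row as a block (difference -0.82, adjusted p = 0.0255). Row 1 alone gives the same difference by construction, from 1 knockin#1 array, and is not a separate check.

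Cdkn2b encodes p15Ink4b, an inhibitor that TGF-beta induces in epithelial cells. Its brighter probe, A_52_P498241, had levels of 1.98, 1.83 and 1.92 on the knockin#1 arrays and 1.66 and 1.90 on the knockin#3 arrays, against 1.70, 1.62 and 1.41 on the control arrays. Here knockin#1 lay above the control and knockin#3 overlapped it, and neither difference was called (0.33, SE 0.12, adjusted p = 0.0725 in knockin#1, and 0.20, SE 0.14, adjusted p = 0.313 in knockin#3). The second probe, A_55_P1988183, had levels of 1.69, 1.89 and 1.94 on the knockin#1 arrays and 1.81 and 1.83 on the knockin#3 arrays, against 1.39, 1.22 and 1.30 on the control arrays. On this probe all 5 knock-in arrays lay above the control, by 0.53 in knockin#1 (SE 0.11, adjusted p = 0.00626) and 0.52 in knockin#3 (SE 0.12, adjusted p = 0.0134). With the mean of both probes standing for the gene, Cdkn2b was called in each clone, at 0.43 (adjusted p = 0.0114) and 0.36 (adjusted p = 0.0408). The call for Cdkn2b therefore turns on the choice of probe.

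Cdkn2a was read by 2 probes, both on the transcript that encodes Arf. Whether they also read the transcript of p16Ink4a was not tested. The brighter probe, A_55_P2008437, had levels of 3.52, 3.63 and 3.27 on the knockin#1 arrays and 3.49 and 3.69 on the knockin#3 arrays, against 3.84, 3.57 and 3.59 on the control arrays. The signal was well above background in every group, so a transcript read by this probe was present in this immortalized line. The groups overlapped. The difference was -0.19 in knockin#1 (SE 0.14, 95% interval -0.51 to 0.12, adjusted p = 0.332) and -0.08 in knockin#3 (SE 0.15, 95% interval -0.43 to 0.27, adjusted p = 0.736). The other probe, A_51_P144813, was dimmer, with a control mean of -0.41 against 3.67 for the brighter probe. It differed by 0.09 and 0.02 and was not called.

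Cdkn1b, which encodes p27Kip1, had levels of 3.37, 3.51 and 3.68 on the knockin#1 arrays and 3.34 and 3.51 on the knockin#3 arrays, against 3.07, 3.28 and 3.14 on the control arrays. All 5 knock-in arrays lay above the 3 control arrays, the nearest by less than the spread within a group. The difference was 0.35 in knockin#1 (SE 0.12, 95% interval 0.08 to 0.63, adjusted p = 0.0571) and 0.26 in knockin#3 (SE 0.14, 95% interval -0.05 to 0.57, adjusted p = 0.191), and neither was called. The knockin#1 value stood at the threshold: it was called in 5 of 18 settings, with adjusted p between 0.0202 and 0.0474. With the array row as a block it was 0.20 in knockin#1 (adjusted p = 0.473) and 0.03 in knockin#3 (adjusted p = 0.954).

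**Figure D2:**
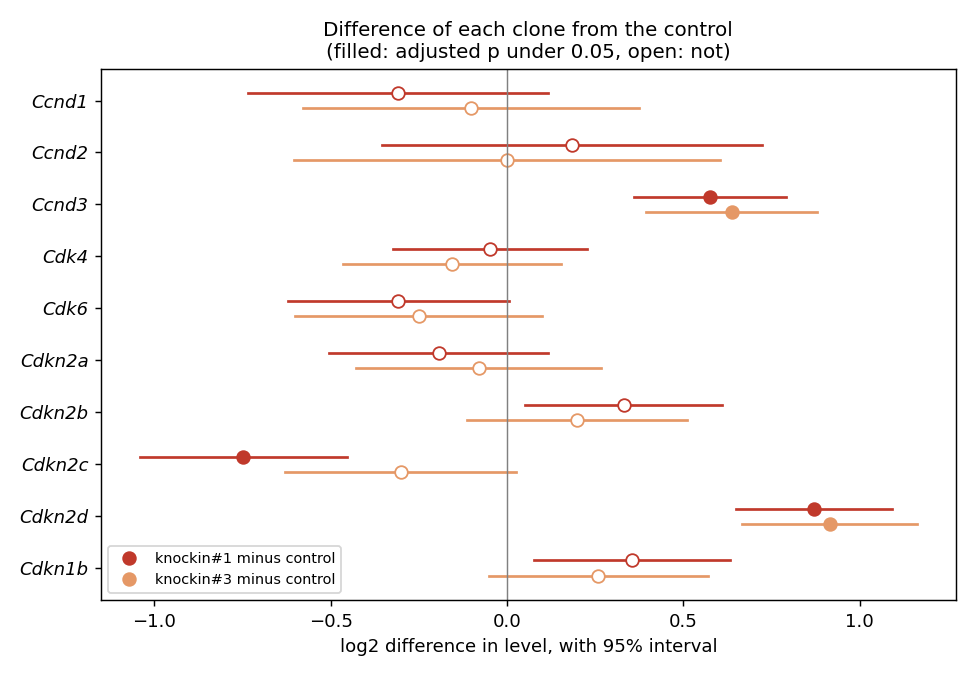
Difference of each clone from the control for the 10 genes, in log2 units, with 95% intervals from the limma fit. Filled circles passed the adjusted threshold: Ccnd3 and Cdkn2d in both clones on the right and Cdkn2c in knockin#1 on the left, at -0.75.

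**Figure D3:**
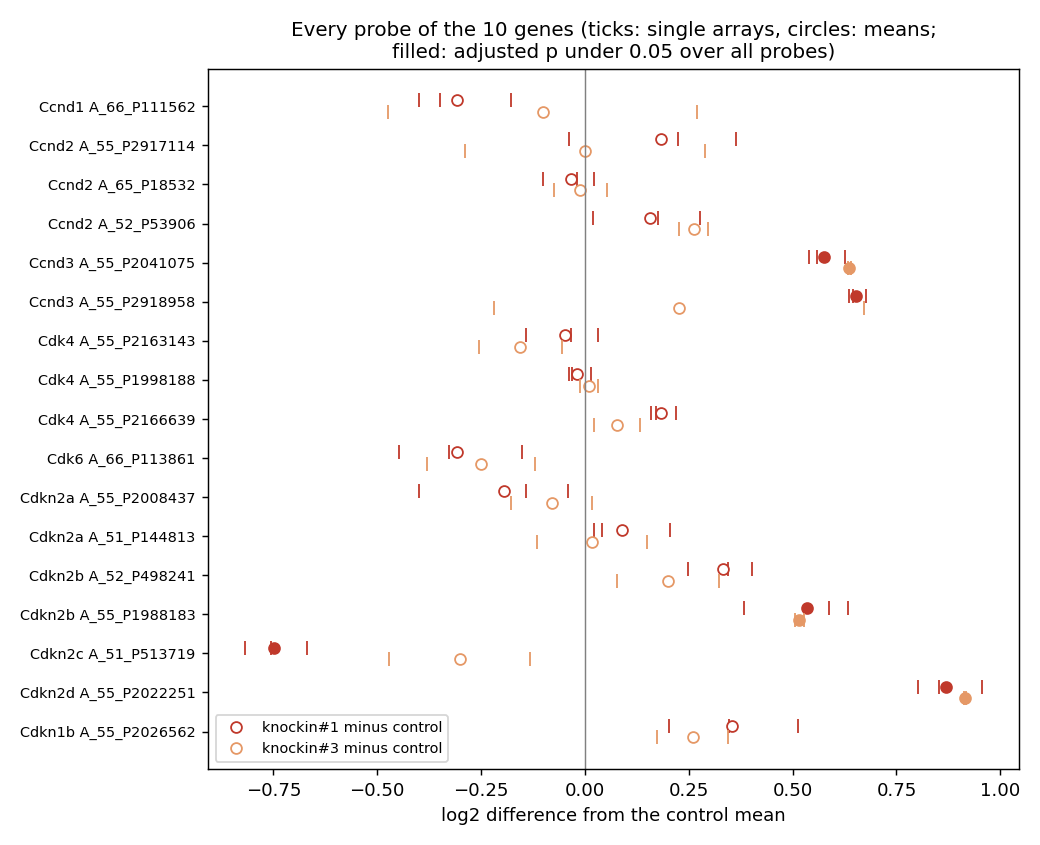
Difference from the control mean for each of the 17 probes, in log2 units. Ticks are single knock-in arrays, circles are clone means, and filled circles passed over all probes. The second Ccnd3 probe has its knockin#3 ticks far apart, and the second Cdkn2b probe is filled in both clones.

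Between the clones, 0 of the 10 members were called by limma (knockin#3 against knockin#1), beside 0.0749% of all genes and transcripts tested (0.0434% higher and 0.0316% lower). Of their 17 probes 0 were called either, beside 0.0681% of all probes. In the fit of genes 1 member, Cdkn2c, had an unadjusted p under 0.05. The differences for Ccnd3 and Cdkn2d were 0.06 (95% interval -0.18 to 0.30) and 0.04 (95% interval -0.20 to 0.29). The width of these intervals leaves equality of the clones unshown.

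The genes whose 8 array values most resembled those of the called members were found among 12392 named genes above background on all arrays, by the root mean square difference after each gene's mean was removed. For Cdkn2d these were Akr1b10 at 0.0184, Zfand3 at 0.0406 and Lpin2 at 0.0526. For Ccnd3 they were Ubxn7 at 0.046, Itpk1 at 0.0479 and Cep170 at 0.0498, and for Cdkn2c they were Mxi1 at 0.07, Psmc3ip at 0.0809 and Sucla2 at 0.0973. Mxi1 encodes a partner of Max that opposes Myc, and Akr1b10 an aldo-keto reductase. Akr1b10 differed from the control by 0.88 in knockin#1 and 0.89 in knockin#3, and Mxi1 by -0.64 and -0.27. The choice by likeness over these same arrays brings such values close to the member's, so they are not a separate result.

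Around these members stand 8 lists of pathway genes, 69 genes in all, of which 67 were tested and 25 were called in both clones with the same sign. Over all genes and transcripts tested that share was 23.5%, with 11.3% higher and 12.2% lower, and a list with a few calls among its genes is not set apart from it. All list genes have a symbol. Of the 14719 tested genes with a symbol, 2263 were higher and 1781 lower in both clones, so the share higher is larger among them than over all tested. The RB and E2F families lie directly downstream of the cyclin D kinases, and of 13 genes 2 rose and 2 fell in both clones, a number near the 23.5% of all tested, with medians of -0.13 in knockin#1 and 0.11 in knockin#3. The pocket protein genes Rb1 (0.50 in knockin#1, 0.53 in knockin#3) and Rbl2 (0.66 and 0.64) rose, while E2f2, an activator (-1.09 and -0.96), and E2f7, a repressor of E2F targets (-0.46 and -0.39), fell. Tfdp1, the partner of E2F proteins, and E2f8 fell in knockin#1 (-0.55 and -0.35) and were not called in knockin#3 (-0.32 and -0.16). E2f4 fell in knockin#3 (-0.82) and was not called in knockin#1 (-0.44), and none of these 3 genes differed between the clones past the threshold. Of the E2F target genes of S phase, the phase of DNA replication, 8 of 16 fell in both clones, against 12.2% of all tested. The proliferation marker Mki67 (-0.46 and -0.44) is 1 of these 8. In knockin#1 13 of 16 fell, against 16.5%. The medians were -0.60 in knockin#1 and -0.35 in knockin#3, beside -0.05 and -0.04 over all tested. Also among the 8 were Tyms, which makes thymidylate (-1.22 in knockin#1, -1.13 in knockin#3), Tk1, thymidine kinase (-0.93 and -0.62), Pola1, the catalytic subunit of DNA polymerase alpha (-0.83 and -0.70), and Rrm2, of ribonucleotide reductase (-0.62 and -0.57).

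Of 7 genes of the later cyclins and their kinases, 2 fell in both clones, beside 12.2% of all tested: Ccne1, which carries cells into replication (-0.68 in knockin#1, -0.61 in knockin#3), and Ccnb2, a mitotic cyclin (-0.85 and -0.63). Of 7 genes of CDK activation and of the turnover of Kip proteins, 1 fell and 1 rose in both clones. Over all tested these shares were 12.2% and 11.3%. Cdc25a, a phosphatase that activates CDKs, fell (-0.68 and -0.70) and Mnat1, a subunit of the CDK-activating kinase, rose (0.50 and 0.62). Skp2 and Cks1b, which target p27 for degradation, were not called (-0.11 and -0.18 in knockin#1, 0.10 and 0.09 in knockin#3). Of the other 2 Cip/Kip inhibitors Cdkn1a, which encodes p21 and is a p53 target, rose (0.75 with adjusted p = 0.00124 in knockin#1, 0.54 with adjusted p = 0.0119 in knockin#3), and Cdkn1c was not called (0.17 and 0.22). Of all tested, 11.3% were higher in both clones.

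Genes that act on the members themselves moved in both directions. Of 11 regulators of the Cdkn2a-Cdkn2b locus 10 were tested. In both clones 1 of them rose and 1 fell, beside 11.3% and 12.2% of all tested. These were the ETS factors, known activators of p16 in human cells: Ets2 rose (1.00 in knockin#1, 0.75 in knockin#3) and Ets1 fell (-1.02 and -0.56). Id1 fell in knockin#3 (-0.83) and was not called in knockin#1 (-0.57), and the Polycomb genes Bmi1 and Ezh2 were not called. Of the 3 Arf-p53 genes Trp53 fell in both clones (-0.64 and -0.74), beside 12.2% of all tested. Mdm2 and Mdm4 were not called. Of 10 degraders and transcription factors of D-type cyclins 9 were tested, and 3 rose and 2 fell in both clones, beside 11.3% and 12.2% of all tested. Gsk3b, a kinase that marks cyclin D1 for degradation (0.89 and 0.94), and the F-box genes Fbxw8 (0.69 and 0.93) and Fbxo4 (0.40 and 0.67) rose, and Ambra1, a ubiquitin ligase adaptor for D-type cyclins (-0.53 and -0.50), and the AP-1 gene Fosl1 (-0.99 and -0.42) fell. With the array row as a block, 5 of the 67 genes were still called in both clones: Tyms, Pola1, Rrm2, Gsk3b and Fbxw8.

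**Figure D4:**
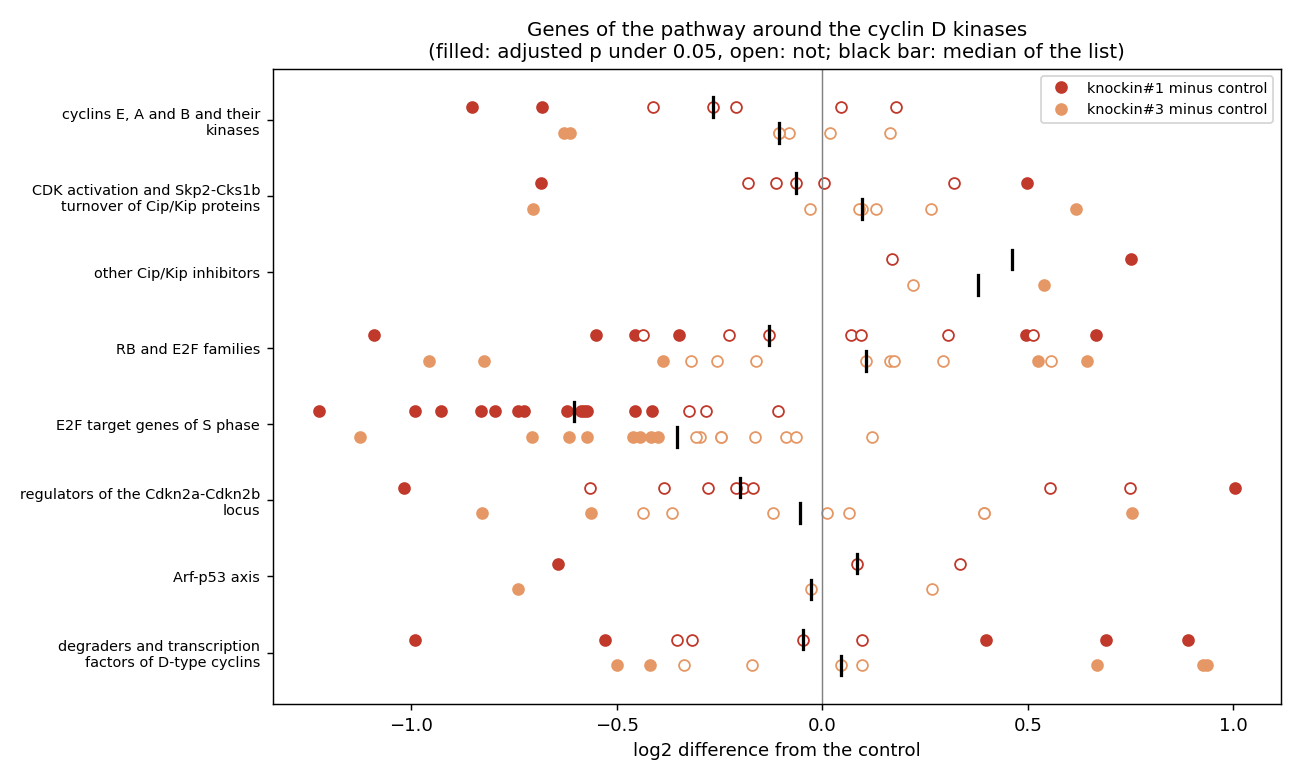
Difference from the control for each tested gene of the 8 pathway lists, in log2 units, with knockin#1 above knockin#3 in each list. Filled circles passed the adjusted threshold and black bars are list medians. The E2F target genes lie mostly left of 0, with medians of -0.60 and -0.35, both genes of the other Cip/Kip inhibitors lie right of 0, and the other 6 lists spread to both sides.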

How the data were processed

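TEC71 RNA was labelled with Cy3 and hybridized to 8 1-colour Agilent SurePrint G3 mouse 8x60K arrays, per the labels. The authors deposited scanner tables. The submitters' processing notes give Agilent Feature Extraction 11.5.11 as their source, and the file headers 11.5.1.1. The values used are processed signals, an intensity on a linear scale after background subtraction, per the file headers, beside other deposited columns that hold flags for outliers, saturation and signal above background. The headers show 1 slide and 1 scan time.

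Control spots and spots flagged as outliers were left out. The log2 signals were averaged over the spots of each probe, and each array's 75th percentile was subtracted. Gene symbols came from matching transcript accessions to the RefSeq table of GRCm38.p6. The headers name an older build, so coordinates are given only for RefSeq's promoter windows. A gene was read by its brightest probe and tested where 1 or more groups had it well above background throughout. The 3 groups were fitted together with lmFit and eBayes of limma 3.58.1 (R 4.3.3), with two-sided tests at 0.05 after Benjamini-Hochberg adjustment over 25353 genes and transcripts, and a second fit took all 32313 probes separately. The script was tested on simulated data.

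The members, lists and alternatives were chosen with earlier results of these data known. Named are all members, up to 4 genes of each list called in both clones, every called gene of lists with 5 or fewer, and the 3 genes most like each of the 3 members with the largest smaller difference of both clones. Uncalled list genes named for contrast were chosen after their values were seen. Alternatives were normexp (offset 50), quantile and median scaling, other filters, probe means, robust eBayes with a trend, array weights (statmod 1.5.0), the array row as a block, each array left out and fits within 1 row. Figures used Python 3.11.15 and matplotlib 3.10.9. Probe sequences were not analysed here.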

Additional observations from a re-analysis of the deposited data

How the results depend on the processing

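Of the 10 members, Cdkn2d in both clones and Cdkn2c in knockin#1 were called under every alternative that gave a value. Ccnd3 was lost with the array row as a block in knockin#3 and within row 1 in knockin#1. The row block and row 1 give the same knockin#1 difference, from 1 knockin#1 array, and are not separate checks. No paired analysis was possible because the labels number the arrays by position on the slide and give the groups no shared replicate numbers. The count of called members was 3 in knockin#1 and became 5 with normexp and 5 with a variance trend and robust estimation, and it was 2 in knockin#3 and became 1 with the row as a block. Leaving out single arrays gave 3 to 4 members in knockin#1, 2 in knockin#3 and 0 between the clones, where 1 member had an unadjusted p under 0.05 each time (Ccnd1 without the second knockin#3 array, otherwise Cdkn2c). Over all genes, the count in knockin#1 was 7896, and 4349 with the row as a block, 3597 within row 1 and 6223 to 7926 without single arrays. In knockin#3 it was 7669, and 5103 without a filter, 2068 with the row as a block and 5150 to 7464 without single arrays. Between the clones it was 19, and 46 with normexp, 7 without a filter, 62 with a variance trend and robust estimation, 8 to 61 without single arrays, and 0 by limma within row 2, where 1552 had an unadjusted p under 0.05. The cause of these changes was not tested, except that row fits hold fewer arrays.

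For the pathway lists, normexp gave 0 other Cip/Kip inhibitors higher and 2 locus regulators lower in both clones. Median scaling gave 1 RB or E2F gene, 3 E2F target genes and 0 degraders or factors of D-type cyclins lower in both clones. With the row as a block 3 E2F target genes and 0 degraders or factors were lower. In the other 6 lists 0 genes were then called in either direction. Under that block 20 of the 67 genes had an unadjusted p under 0.05 in both clones. Values that changed sign were never called. For knockin#1, Cdk4 was 0.0035 with normexp and 0.039 with the mean of all probes, and Ccnd2 was -0.038 with the row as a block, -0.038 within row 1 and -0.0447 to 0.363 without single arrays. For knockin#3, Ccnd2 was -0.0352 with normexp, -0.33 with the row as a block and -0.29 to 0.29 without single arrays, Cdkn2a was 0.0024 with median scaling and -0.178 to 0.0177 without single arrays, and Ccnd1 was -0.47 to 0.27 without single arrays. For knockin#3 minus knockin#1, Cdkn2d was -0.0204 with normexp and Ccnd3 -0.18 with the mean of all probes, and without single arrays Ccnd1 was -0.16 to 0.58, Ccnd2 -0.47 to 0.11 and Cdk6 -0.0724 to 0.188. All 17 member probes were well above background, and the part of signal depth in these values was not tested.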
